A study of Mus musculus with 160 samples.

Results

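The myeloid transcription factors PU.1, C/EBP and Irf8, with their relatives Irf4 and Klf4, were followed through the formation of induced blood progenitors from mouse pluripotent stem cells. The 8 genes were chosen by name as Sfpi1 (the older symbol of Spi1, which encodes PU.1), Cebpa, Cebpb, Cebpd, Cebpe, Irf8, Irf4 and Klf4, and all 8 were among the 23420 gene rows of the expression table. RNA of 160 single sorted cells of the C57BL/6 background was measured in TPM, a share of transcripts that corrects for transcript length and scales every cell to about the same total. The first group held 65 induced hemogenic endothelial cells (iHECs), endothelial cells on the way to blood formation, sorted as CD31+CD41lowCD45-c-kit+CD201high. The other groups were induced hematopoietic progenitor cells (iHPCs) grown on OP9-DL1 stromal feeder cells, which present a Notch ligand. There were 21 iHPCs of day 14, 18 of day 17 and 56 of day 21, which are days 3, 6 and 10 of maturation. Day-14 and day-17 iHPCs were sorted as CD45+ cells negative for lineage antigens that include Gr1, F4/80 and FcεRIα, and day-21 iHPCs as Ter119-CD45+c-kit+CD127+. The labels give embryonic or induced pluripotent stem cells expressing Runx1 and Hoxa9 as the source, and the study's text names its embryonic line iR9-ESC, in which both genes sit in 1 doxycycline-inducible cassette at the Rosa26 locus. The labels name no separate culture for any cell, so each group was taken as 1 sample, cells were not counted as replicates, and no test between groups was possible. By the study's methods, the medium, its cytokines and the feeder cells also changed between the iHEC step and maturation, with doxycycline given in both. Day, gate and culture thus changed together from iHEC to day 14, and day and gate from day 17 to day 21. Their parts in a difference cannot be told apart.

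PU.1 is an ETS-family factor that is needed for both myeloid and lymphoid blood cells, and it opens and activates the genes of many myeloid receptors. C/EBP factors are basic leucine zipper proteins: C/EBPα directs progenitors towards the granulocyte and monocyte lineages, C/EBPβ acts in macrophages and in emergency granulopoiesis, C/EBPδ responds to inflammatory signals, and C/EBPε acts in late granulocytes. Irf8 pairs with PU.1 on composite DNA sites and promotes monocytes and dendritic cells at the expense of neutrophils, its close relative Irf4 acts mainly in lymphoid and some dendritic cells, and the zinc-finger factor Klf4 promotes monocytes and is also known from pluripotent and endothelial cells. In T cell development PU.1 stays on in the earliest progenitors and is then silenced.

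RefSeq promoter entries were found for 5 members, with 2 windows for Irf8 and 6 windows in all. Of these, 4 are shown to let the letters of the family's own binding motifs be read there. They were picked with their TATAAA matches known, so its presence in all 4 is no result. Each window is RefSeq sequence of build GRCm38.p6 on the plus strand, from 250 bases before to 50 bases after a gene's start site. Capitals mark motif matches. The PU.1 core was searched on both strands as GAGGAA. The motif of C/EBP factors was searched on both strands as TTGCNNAA. The motif of IRF factors was searched on both strands as GAAANNGA. GATA sites were searched on both strands as AGATAA. KLF sites were searched on both strands as CACCC. The TATA box was searched on the strand of the gene as TATAAA. No matches overlapped in these windows.
Cebpa, chr7:35119043-35119342: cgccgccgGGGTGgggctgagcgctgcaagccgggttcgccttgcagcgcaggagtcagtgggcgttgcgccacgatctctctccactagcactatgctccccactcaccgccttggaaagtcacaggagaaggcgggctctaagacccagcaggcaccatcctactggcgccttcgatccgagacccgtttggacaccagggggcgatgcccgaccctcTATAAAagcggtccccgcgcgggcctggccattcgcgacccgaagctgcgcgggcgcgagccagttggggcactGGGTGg
Cebpb, chr2:167688665-167688964: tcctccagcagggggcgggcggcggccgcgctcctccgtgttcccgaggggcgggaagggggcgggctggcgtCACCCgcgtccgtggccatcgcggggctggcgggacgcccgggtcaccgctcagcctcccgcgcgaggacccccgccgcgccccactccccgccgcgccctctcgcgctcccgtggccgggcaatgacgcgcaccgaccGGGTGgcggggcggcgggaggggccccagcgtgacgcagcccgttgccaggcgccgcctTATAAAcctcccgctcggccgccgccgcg
Irf8, chr8:120736108-120736407: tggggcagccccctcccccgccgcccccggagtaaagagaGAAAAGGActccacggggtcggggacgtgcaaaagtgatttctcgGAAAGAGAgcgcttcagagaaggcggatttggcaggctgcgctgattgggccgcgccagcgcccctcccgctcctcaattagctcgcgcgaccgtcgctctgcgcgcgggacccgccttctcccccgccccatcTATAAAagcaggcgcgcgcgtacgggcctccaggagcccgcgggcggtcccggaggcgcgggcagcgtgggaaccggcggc
Irf4, chr13:30748983-30749282: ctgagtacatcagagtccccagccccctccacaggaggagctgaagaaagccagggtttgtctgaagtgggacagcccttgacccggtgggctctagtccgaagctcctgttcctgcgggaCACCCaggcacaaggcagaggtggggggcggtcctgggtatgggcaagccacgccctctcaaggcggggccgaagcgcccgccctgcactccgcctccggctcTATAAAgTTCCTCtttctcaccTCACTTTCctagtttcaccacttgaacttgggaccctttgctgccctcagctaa

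The second Irf8 window and the Klf4 window held no TATAAA match. In the windows shown, it began 30 bases before the start site in Cebpa, 31 bases before it in Irf8 and 26 bases before it in Irf4, whereas in Cebpb it began 21 bases after the start site. For reference, among 32851 promoter windows of the same length, 8.32% held TATAAA on the gene's strand, and 1.99% held it with its first base between 40 and 20 bases before the start site. This motif was chosen after the sequences had been read, and the shares are no test of the members. Of these windows the PU.1 core was found in Irf4 alone, on the opposite strand and beginning 19 bases before the start site, while 28.3% of all windows held it. IRF matches stood at 2 places in Irf8 and at 1 in Irf4, against 21% of all windows. No C/EBP or GATA match was in the 4 windows, against 10.8% and 11.2% of all windows. CACCC matches stood in Cebpa, Cebpb and Irf4, and 57.5% of all windows held one. The GC content of the windows was 67.3% for Cebpa, 80.7% for Cebpb, 70.0% for Irf8 and 61% for Irf4, above the median of 52.7% over all windows. These matches describe letters in a window and not binding.

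The cells differed in how many genes were seen. The median number of genes detected (above 1 TPM) per cell was 4926 for iHECs, and 8200, 8101 and 6695.5 for iHPCs of day 14, 17 and 21. The part of this in the shares of cells given below was not tested. Read counts cannot be had from TPM, and depth per cell is therefore unknown. Endothelial markers were high in iHECs, with a mean log2(TPM + 1) over 8 genes between 2.38 and 8.72, and between 0 and 2.69 in iHPCs. Ptprc, which encodes CD45, fit the CD45 side of the gate in 155 of 160 cells. The exceptions were iHEC 64, day-14 cells 4 and 17, day-17 cell 9 and day-21 cell 49. Day-17 cell 9 also held Col1a1, a collagen gene of stromal cells, at 45.2 TPM and Vim at 693 TPM. Of 7 stromal markers, however, Col3a1, Dcn and Lum were at 0 in all day-17 cells, and Vim was also at 549 TPM in day-21 cell 49. Whether day-17 cell 9 was a stromal cell was not tested. These 5 cells are kept below, and values without them are given where they matter.

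Sfpi1 (chr2:91082390-91115756, plus strand, GRCm38) was the most widely detected member in iHPCs. It was detected in 23 of 65 iHECs (35.4%, exact 95% binomial interval 23.9 to 48.2%, which covers counting error only), 20 of 21 day-14 cells (95.2%, 76.2 to 99.9%), 18 of 18 day-17 cells (interval 81.5 to 100%) and 55 of 56 day-21 cells (98.2%, 90.4 to 100%). In iHECs it was all or little: the lowest and the median value were 0 TPM, while the 23 detected cells ran from 11.1 to 851 TPM with a median of 192 TPM. The highest of these, at 851 TPM, was iHEC 64, the only iHEC with Ptprc above 1 TPM, and without it the highest iHEC held 415 TPM. At day 14 Sfpi1 ran from 0.377 through a median of 664 to 1624 TPM. The low end was set by 2 cells without Ptprc, day-14 cell 17 at 0.377 TPM and cell 4 at 14.5 TPM. The other 19 day-14 cells lay between 394 and 1624 TPM, beside the 415 TPM of the highest iHEC without Ptprc. At day 17 the values ran from 1.72 through 552 to 2011 TPM, and without day-17 cell 9, which lacked Ptprc and held 1.72 TPM, the lowest was 164 TPM. At day 21 they ran from 0.802 through 265 to 1017 TPM. On the log2(TPM + 1) scale the group means with their SD between cells were 8.84 ± 2.33 for day 14 (n = 21 cells), 8.80 ± 2.0 for day 17 (n = 18), 7.59 ± 1.99 for day 21 (n = 56) and 2.55 ± 3.48 for iHECs (n = 65). Day 14 and day 17 differed by less than the spread between cells, and day 21 lay below both by less than 1 SD. Without the cells against the CD45 gate the SD was 0.52 at day 14 and 0.83 at day 17, with means of 9.54 and 9.23, and both means were still within the day-21 SD of the day-21 mean.

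**Figure D1:**
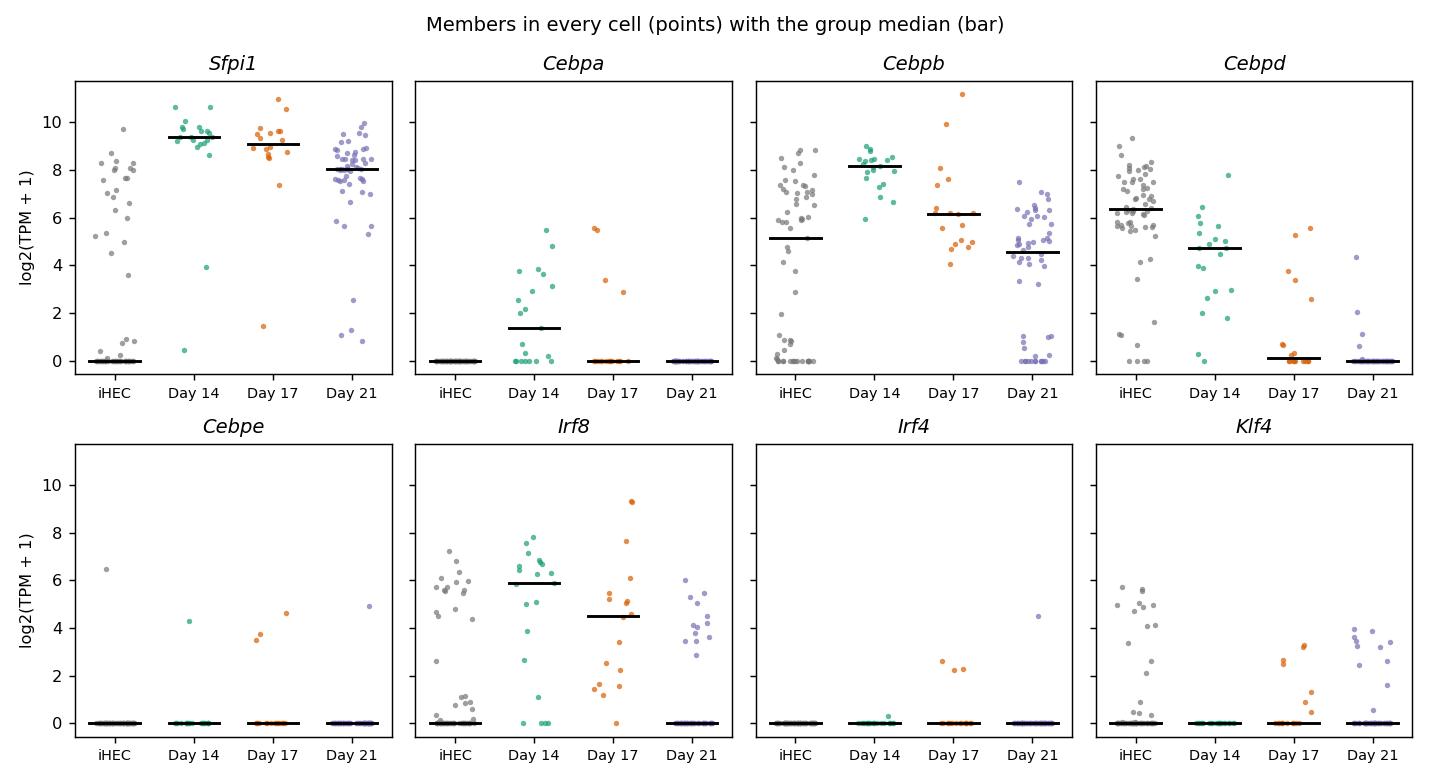
Level of each of the 8 members in every cell, as log2(TPM + 1) on the vertical axis, for 65 iHECs and 21, 18 and 56 iHPCs of day 14, 17 and 21; each point is a cell and each bar a group median. Sfpi1 was spread from 0 upwards in iHECs and high in nearly all iHPCs, Cebpb and Cebpd were stepwise lower at later iHPC days, and Cebpa was at 0 in all iHECs and day-21 cells.

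The C/EBP genes did not share a single course. Cebpa (chr7:35119293-35121928, plus strand) was listed at 0 TPM in all 65 iHECs, which allows a share of up to 4.62% of cells above 1 TPM. It was detected in 11 of 21 day-14 cells (52.4%, 29.8 to 74.3%), with a group median of 1.56 and a highest value of 43.2 TPM. At day 17 it was seen in 4 of 18 cells (22.2%, 6.41 to 47.6%), namely cells 1, 2, 3 and 18 at 9.62, 44.2, 6.43 and 45.9 TPM. At day 21 it was again listed at 0 in all 56 cells, which allows a share of up to 5.36%. Cebpa was thus seen in day-14 and day-17 cells and in no others of the 160. Where detected, its median was 7.83 TPM at day 14 and 26.9 TPM at day 17, below the Sfpi1 medians of the same days.

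Cebpb (chr2:167688915-167690418, plus strand) was detected in 40 of 65 iHECs (61.5%, 48.6 to 73.3%), all 21 day-14 and all 18 day-17 cells, and 41 of 56 day-21 cells (73.2%, 59.7 to 84.2%). In iHECs its values ran from 0 through a median of 34.4 to 462 TPM. At day 14 they ran from 60.9 through 284 to 517 TPM, the narrowest of the Cebpb distributions, with a mean log2(TPM + 1) of 7.99 ± 0.78 (SD, n = 21 cells). At day 17 the median was 71.4 TPM in a range of 15.5 to 2315 TPM, and at day 21 it was 22.9 TPM in a range of 0 to 182 TPM. The median was thus highest at day 14 and lower at each later day, while single day-17 cells exceeded every day-14 cell.

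Cebpd (chr16:15887286-15891031, plus strand) was most often seen in iHECs. It was detected in 60 of 65 iHECs (92.3%, 83.0 to 97.5%), 19 of 21 day-14 cells (90.5%, 69.6 to 98.8%), 5 of 18 day-17 cells (27.8%, 9.69 to 53.5%) and 3 of 56 day-21 cells (5.36%, 1.12 to 14.9%). The median was 81.9 TPM in iHECs, in a range of 0 to 649 TPM, and 25.3 TPM at day 14, in a range of 0 to 224 TPM. At day 17 it was 0.0899 TPM with a highest value of 46.9 TPM, and at day 21 it was 0 with a highest value of 19.5 TPM. Of the 2 day-14 cells that lacked Cebpd, both also lacked Ptprc, and without these cells 19 of 19 held it. Cebpe (chr14:54710360-54712174, minus strand), the factor of late granulocytes, was detected in 1 iHEC, 1 day-14 cell, 3 day-17 cells and 1 day-21 cell, with a highest value of 87.7 TPM in the iHEC.

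Irf8 (chr8:120736358-120756694, plus strand) was detected in 19 of 65 iHECs (29.2%, 18.6 to 41.8%), 17 of 21 day-14 cells (81.0%, 58.1 to 94.6%), 17 of 18 day-17 cells (94.4%, 72.7 to 99.9%) and 13 of 56 day-21 cells (23.2%, 13 to 36.4%). Its values ran from 0 through a median of 0 to 151 TPM in iHECs and from 0 through 59 to 226 TPM at day 14. At day 17 they ran from 0 through 21.9 to 636 TPM, with only 10 of 18 cells above 10 TPM. At day 21 the median was 0 and the highest value 63.4 TPM. Day 14 and day 17 differed by less than the spread between cells, with means of log2(TPM + 1) of 4.66 ± 2.81 (SD, n = 21 cells) and 4.24 ± 2.73 (n = 18), and iHECs and day 21 were lower, at 1.53 ± 2.44 (n = 65) and 1.0 ± 1.88 (n = 56). At day 21 Irf8 was thus absent above 1 TPM from most cells, whereas its partner Sfpi1 was detected in nearly all of them.

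Irf4 (chr13:30749226-30766976, plus strand) was detected in no iHEC and no day-14 cell, so that shares of at most 4.62% and 14.3% are allowed by counting. At day 17 it was detected in 3 of 18 cells, at 3.71, 3.91 and 5.18 TPM, and in 1 of 56 day-21 cells, at 21.9 TPM. None of these day-17 cells held Cebpa. Klf4 (chr4:55527143-55532466, minus strand) was detected in 13 of 65 iHECs (20%, 11.1 to 31.8%), with a highest value of 51.7 TPM. It was listed at 0 in all 21 day-14 cells, which allows a share of up to 14.3%, and was found in 5 of 18 day-17 cells, at no more than 8.91 TPM, and in 10 of 56 day-21 cells (17.9%, 8.91 to 30.4%), at no more than 14.7 TPM.

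**Figure D2:**
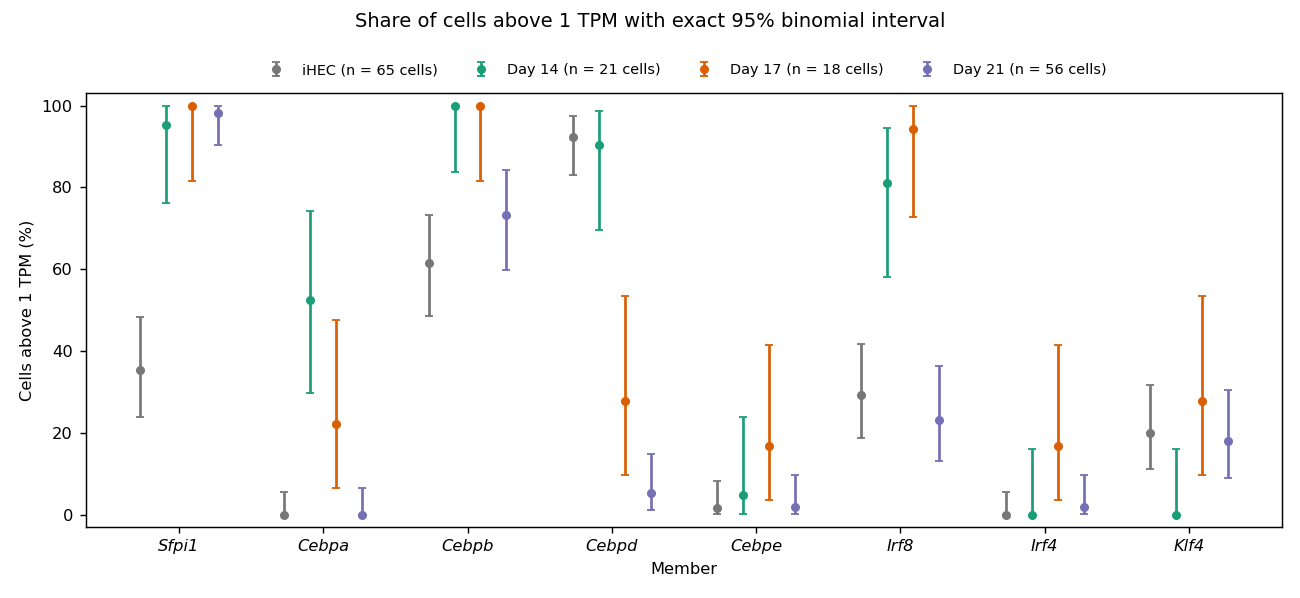
Share of cells above 1 TPM in percent on the vertical axis for each member and group (65 iHECs, 21 day-14, 18 day-17 and 56 day-21 iHPCs); points are shares and bars exact 95% binomial intervals, which cover counting error only. Sfpi1 stayed near the top in all iHPC groups, while Cebpd and Irf8 were near the bottom at day 21 with 5.36% and 23.2% of cells.

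Differences between consecutive groups were set against those of all genes. A gene was called when the difference of the group means of log2(TPM + 1), later minus earlier, was at least 2 in size after the median difference over 9674 genes was subtracted. Only genes detected in more than 30 cells were tested, and 4 of the 8 members (Sfpi1, Cebpb, Cebpd and Irf8) were among them. Sfpi1 and Irf8 were detected in 23 and 19 iHECs and passed this filter through the iHPCs, so their counts as higher from iHEC to day 14 are a description. From iHEC to day 14, 3 of 8 members were higher, against 12.1% of all genes tested: Sfpi1 by 5.37, Cebpb by 3.06 and Irf8 by 2.21. 1 of 8 was lower, Cebpd with a difference of -2.77, against 10.9% of all genes. Without the median of 0.93 subtracted, the Cebpd difference no longer passed the size rule. From day 14 to day 17, 0 of 8 members were higher, against 1.93% of all genes, and Cebpd alone was lower, with a difference of -3.15, against 0.941% of all genes. Cebpb was just short of the rule with -1.87, and it passed, with -2.09, without the cells that went against the CD45 gate. From day 17 to day 21, 0 of 8 members were higher, against 1.73% of all genes, and Irf8 alone was lower, with -2.50, against 1.36%. The Sfpi1 differences of these last steps were -0.32 and -0.47, short of the size rule. Without the cells against the CD45 gate they were -0.57 and -0.93, also short of it. Cells are not replicates, so these differences describe the sampled cells.

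Day-17 cells 1 and 18 stood apart from the rest of their group. They held Sfpi1 at 1532 and 2011 TPM, Cebpb at 977 and 2315 TPM, and Irf8 at 620 and 636 TPM, in each case the highest values of that day. Cebpd was at 37.7 and 46.9 TPM in them and at no more than 12.8 TPM in the other 16 day-17 cells. Csf1r, the receptor for macrophage colony-stimulating factor, was at 191 and 343 TPM, and Mpo, the myeloperoxidase of neutrophil and monocyte granules, at 5725 and 553 TPM. Of 10 neutrophil and monocyte markers, 8 were above 1 TPM in each of these cells, with list means of log2(TPM + 1) of 6.95 and 5.95, and the highest list mean among the other 16 cells was 1.44. Il7r, the receptor for interleukin-7, and Cpa3 were at 0 in both. Leaving out either cell brought the number of members lower from day 14 to day 17 to 2, and leaving out both gave a Cebpb difference of -2.39. From day 17 to day 21 the Irf8 difference was -1.88 without both cells, so the call of Irf8 in that step rested on them, although the share of cells with Irf8 was still 93.8% in the other 16 day-17 cells. Day-17 cells 2 and 3 differed from them: they also held Cebpa, but their Cebpb was only 28.5 and 15.5 TPM, their Mpo was below 1 TPM, and both held Flt3, at 159 and 68.4 TPM, and Il7r, at 51.2 and 19.2 TPM.

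Sfpi1, Cebpb and Irf8 were found in the same cell in most early iHPCs and in few iHECs. All 3 were detected together in 3 of 65 iHECs (4.62%), 16 of 21 day-14 cells (76.2%), 17 of 18 day-17 cells (94.4%) and 11 of 56 day-21 cells (19.6%). The most frequent pattern at day 21 was Sfpi1 with Cebpb and without Irf8, in 30 of 56 cells (53.6%). In iHECs Irf8 was no more frequent in cells with Sfpi1 than in cells without it: Irf8 was above 1 TPM in 4 of 23 cells with Sfpi1 (17.4%, 4.95 to 38.8%) and in 15 of 42 cells without it (35.7%, 21.6 to 52%), with a median of 5028 and 4826 genes detected in these cells. The intervals overlap. Cebpb was in 16 of 23 iHECs with Sfpi1 and in 24 of 42 without it. None of the 8 members was above 1 TPM in 1 iHEC and in 1 day-21 cell, and the median number of members per cell was 4 for both day 14 and day 17 and 2 for both iHECs and day 21. Day-14 cell 19 and day-17 cell 1 each held 6 of the 8 members, the highest number in any cell.

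**Figure D3:**
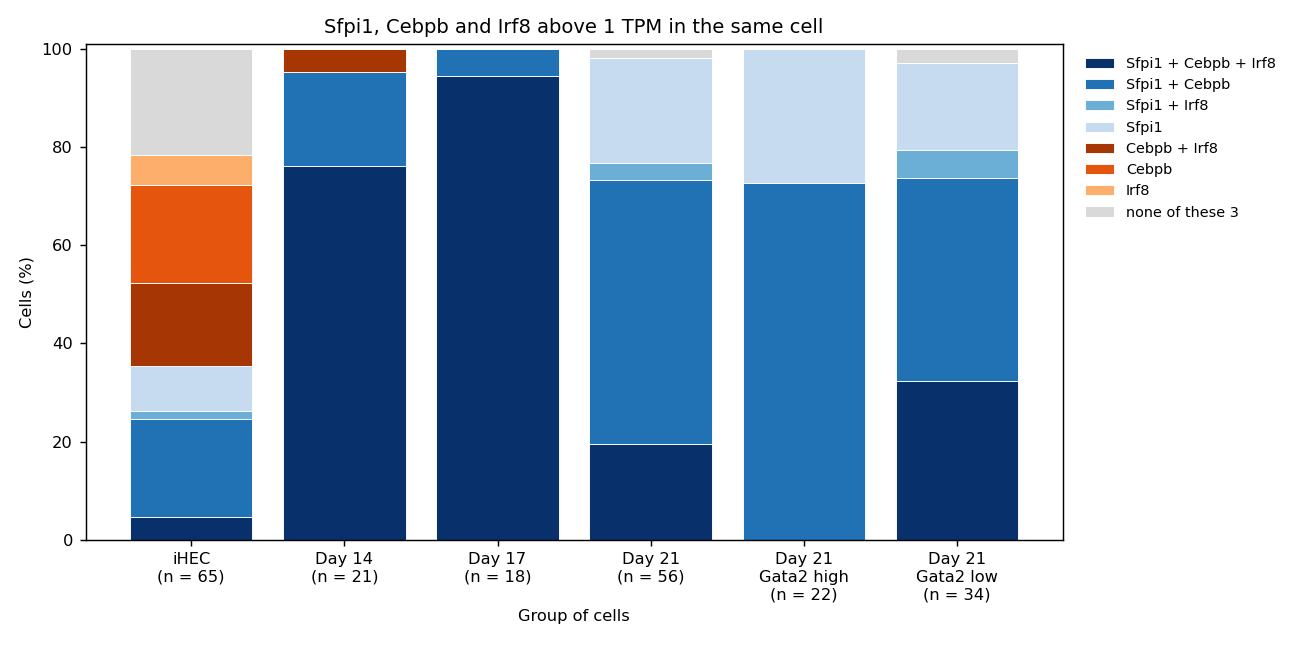
Share of cells in percent on the vertical axis by which of Sfpi1, Cebpb and Irf8 were above 1 TPM in the same cell, for iHECs, day-14, day-17 and day-21 iHPCs and the day-21 cells with Gata2 at or above 31 TPM (22 cells) and below (34 cells). Cells with all 3 factors made up 76.2% at day 14 and 94.4% at day 17, against 4.62% in iHECs and 0 of 22 day-21 cells high in Gata2.

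The day-14 cells with Cebpa held most of the other members too. Cells with Cebpa are those above 1 TPM, and only 5 of the 21 day-14 cells were above 10 TPM. All 11 day-14 cells with Cebpa held Sfpi1, Cebpb, Cebpd, Flt3 and Csf1r, and 10 of them held Irf8 and Mpo. Of the 10 day-14 cells without Cebpa, 9 held Sfpi1, 10 Cebpb, 8 Cebpd, 6 Flt3, 8 Csf1r, and 7 each Irf8 and Mpo. The median level of Cebpb was 341 TPM in cells with Cebpa and 227 TPM in those without, and of Irf8 76.0 and 43.9 TPM. Cells with and without Cebpa had a median of 8294 and 7984.5 genes detected. The 2 cells without Ptprc were both among those without Cebpa.

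Within day 21 the cells were split at 31 TPM of Gata2, a factor of blood stem cells and mast cells that opposes PU.1 in several lineages. This split uses a measured value, so what follows is a description. It gave 22 cells at or above the threshold and 34 below. The nearest values were 66.0 and 71.0 TPM above it and 9.18 and 4.95 TPM below it. Irf8 was above 1 TPM in 0 of 22 Gata2-high cells, which allows a share of up to 13.6%, and in 13 of 34 Gata2-low cells (38.2%, 22.2 to 56.4%). Klf4 was likewise in 0 of 22 and in 10 of 34 (29.4%, 15.1 to 47.5%). Both factors were listed at 0 TPM in each of the 22 Gata2-high cells. Sfpi1, in contrast, was above 1 TPM in 22 of 22 Gata2-high cells, from 191 through a median of 298 to 1017 TPM, and in 33 of 34 Gata2-low cells, from 0.802 through 206 to 884 TPM. Its spread was narrower in the first, with a mean log2(TPM + 1) of 8.40 ± 0.60 (SD, n = 22 cells) against 7.07 ± 2.37 (n = 34). Cebpb did not separate them, with 16 of 22 cells (72.7%) and 25 of 34 cells (73.5%) and medians of 26.3 and 20.8 TPM. Cebpd, Cebpe and Irf4 were each in at most 2 cells of either set, and Cebpa in none.

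The same size rule was applied to 9277 genes detected in more than 10 day-21 cells: 0 of 8 members were higher in Gata2-high cells, against 4.14% of all genes, and 0 of 8 lower, against 2.58%. Of the members, 3 (Sfpi1, Cebpb and Irf8) were among those genes. The relative differences, Gata2-high minus Gata2-low, were 1.34 for Sfpi1, 0.12 for Cebpb, -1.65 for Irf8 and -0.95 for Klf4. The split went with mast cell genes: Cpa3, a mast cell protease, was above 1 TPM in all 56 cells, with a median of 10662 TPM in Gata2-high and 868 TPM in Gata2-low cells, and the mean log2(TPM + 1) over 9 mast cell and basophil markers ran from 5.13 to 9.43 and from 1.29 to 4.08. Of these 9 markers, 8 were above 1 TPM in some Gata2-high cell and 7 in some Gata2-low cell. Over 8 T-lymphoid markers it ran from 0 to 2.63 and from 0.78 to 6.33. The median number of genes detected was 6665.5 and 6769.5. The part of either cell type's genes in the absence of Irf8 and Klf4 was not tested.

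**Figure D4:**
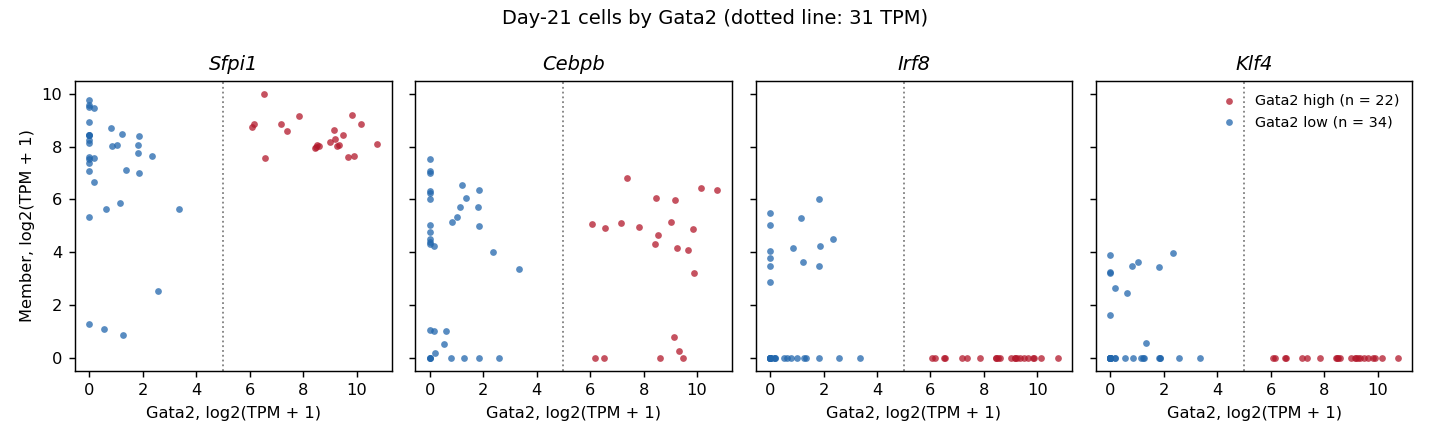
Sfpi1, Cebpb, Irf8 and Klf4 on the vertical axes against Gata2 on the horizontal axes, all as log2(TPM + 1), in the 56 day-21 cells; each point is a cell, red for the 22 at or above 31 TPM of Gata2 (dotted line) and blue for the 34 below. Sfpi1 was high on both sides, whereas Irf8 and Klf4 were at 0 in every Gata2-high cell.

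The day-21 cells with Irf8 carried lymphoid receptors, as did most Gata2-low cells without it. Il7r encodes CD127, and all day-21 cells were sorted as CD127+, so its detection is no result about Irf8. All 13 held Il7r and all 13 held Flt3, the receptor for FLT3 ligand on early lymphoid and dendritic progenitors, and 10 held Tcf7, a Notch-induced factor of early T cells. Among the 21 Gata2-low cells without Irf8, 20 held Il7r, 18 Flt3 and 16 Tcf7, so the contrast was with Gata2-high cells rather than within the Gata2-low set. Of the 22 Gata2-high cells, only 8 held Il7r despite the CD127 gate, 2 held Flt3 and 2 held Tcf7. Cells with Irf8 also had more genes detected, with a median of 7298 against 6010 in Gata2-low cells without it. All 10 cells with Klf4 held Flt3 and 9 held Il7r, against 31 and 33 of all 34 Gata2-low cells. Of the 10, 4 also held Irf8. Csf1r was above 1 TPM in 1 of 56 day-21 cells and Mpo in 0, which allows a share of up to 5.36%, although 55 of the 56 held Sfpi1.

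Genes that these factors are known to regulate were grouped as 15 receptors and 21 granule and effector genes. The median relative difference over all genes tested is 0 by construction. List medians are given over the genes that passed the filter and over the whole list, in which genes near 0 in both groups take the value of the subtracted median with its sign turned. Between iHEC and day 14, 1 of the 6 receptors that passed the filter was higher (Flt3, by 3.45) and none lower. Of all genes 12.1% were higher and 10.9% lower. Flt3 was listed at 0 TPM in all 65 iHECs and passed the filter through the iHPCs, so this count is a description. The median was 0.29 over the 6 receptors and 0.86 over the 15. Among effectors 8 of 21 passed the filter and 5 were higher, with a median of 2.18 over the 8 and -0.06 over the 21. Ctss, Ncf4, Prtn3 and Ncf1 had iHEC means of only 0, 0.22, 0.33 and 0.42 and passed the filter through the iHPCs, so this count describes the genes and is not set against other genes. The largest were Prtn3 (proteinase 3) by 5.65, Ncf4 and Ncf1 (subunits of the phagocyte NADPH oxidase) by 3.62 and 3.06, and Cd68 (a lysosomal protein of macrophages) by 2.36. Csf1r and Mpo did not pass the filter. Csf1r was above 1 TPM in 19 of 21 day-14 cells with a median of 32.5 TPM, and Mpo in 17 of 21 with a median of 158 TPM, against 2 and 0 of 65 iHECs. From day 14 to day 17 no receptor was higher, and Fcgr3 (a low-affinity IgG receptor) and Csf2rb (the shared beta chain for granulocyte-macrophage colony-stimulating factor, interleukin-3 and interleukin-5) were lower, with differences of -3.81 and -3.65, beside 0.941% lower of all genes, and medians of -0.81 over the 6 and -0.99 over the 15. Among effectors Ctss (cathepsin S) was higher by 3.25 and Cd68 lower with -2.18, with medians of -0.57 over the 8 and -0.28 over the 21. Csf1r was then in 5 of 18 cells and Mpo in 4 of 18.

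From day 17 to day 21, Fcgr3 was higher by 4.12 among receptors, beside 1.73% higher and 1.36% lower of all genes, with medians of 1.08 over the 6 and 0.22 over the 15. Ctsg (cathepsin G) was higher by 4.54, and Prtn3, Ctss and Ncf1 were lower, with -3.78, -2.45 and -2.38. Ctsg had a mean of 0 in iHECs and at day 14 and of 0.86 at day 17. It passed the filter through day-21 cells, so its call is a description. The effector median was -0.52 over the 8 that passed and 0.51 over the 21, so the sign depends on the genes near 0. Within day 21 the Gata2-high cells were higher in Csf2rb by 6.06, Fcgr3 by 4.05 and Csf2rb2 by 3.58 and lower in Flt3, with -4.67. Among effectors Ctsg alone was higher, by 8.01. Of all genes 4.14% were higher and 2.58% lower. Csf2rb and Csf2rb2 had Gata2-low means of 0.78 and 0.03, and Flt3 had a Gata2-high mean of 0.36. Each of them passed the filter through the other set, so these calls are a description. The receptor median was 2.26 over the 6 that passed and the effector median -0.01 over the 8, and both were 0 over the whole lists. Ctsg is a granule protease of mast cells as well as of neutrophils, and Csf2rb and Fcgr3 are also mast cell receptors. Csf2rb was above 1 TPM in all 22 Gata2-high cells with a median of 144 TPM and in 6 of 34 Gata2-low cells, and Ctsg had medians of 1655 and 1.14 TPM. Mast cell markers differed together with these genes in the same cells, and their part in the result was not tested.

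**Figure D5:**
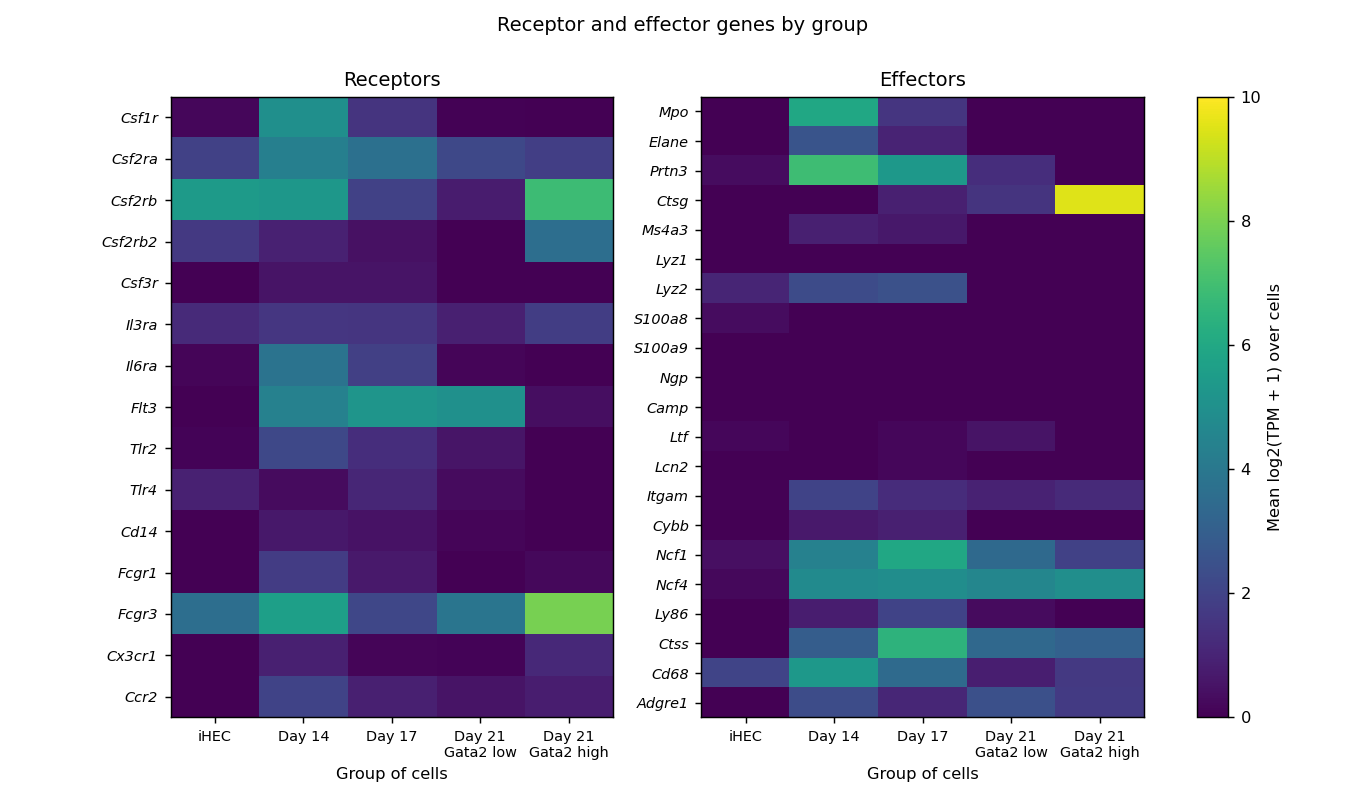
Mean log2(TPM + 1) over cells (colour) of 15 receptor and 21 effector genes in 65 iHECs, 21 day-14, 18 day-17, 34 day-21 Gata2-low and 22 day-21 Gata2-high cells. Csf1r, Mpo and Prtn3 were highest at day 14, Flt3 was shared by day 14, day 17 and Gata2-low cells, and Csf2rb, Fcgr3 and Ctsg were highest in Gata2-high cells.

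Other genes of the same families were also followed. Of 18 relatives, 14 passed the filter, and from iHEC to day 14 Irf5 and Irf1 were higher and 5 Klf genes lower, the largest being Klf6 with -6.44, Klf2 (a factor of flow-exposed endothelium) with -5.11, Klf10 with -4.56 and Klf3 with -3.98. Over all genes 12.1% were higher and 10.9% lower, so the 2 of 14 higher were near that share. Irf5 had a mean of 0 in iHECs and passed the filter through the iHPCs, so this count of higher genes is a description. From day 14 to day 17, 3 were higher and 0 lower, beside 1.93% and 0.941% of all genes: Irf7, the factor that drives interferon production, by 6.61, Irf9 by 2.36 and Irf1 by 2.33. Irf7 was above 1 TPM in 2 of 21 day-14 cells and in all 18 day-17 cells, with a median of 242 TPM. It had a mean of 0 in iHECs and passed the filter through day-17 and day-21 cells, so the count with it is a description. From day 17 to day 21 Irf5 alone was lower, with -2.19, beside 1.36% of all genes. Gata2-high cells were lower in Irf7, with -3.47, and Klf3, with -2.50. They were higher in Ddit3 (an atypical C/EBP of the stress response) by 2.67 and Klf6 by 2.56. Of all genes 2.58% were lower and 4.14% higher. Klf3 had a Gata2-high mean of 0.17 and passed the filter through the Gata2-low cells, so its call is a description. The medians in the 4 comparisons were -0.75, 0.69, -0.30 and 0 over the 14 that passed and -0.87, 0.69, -0.27 and 0 over the 18.

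Of 20 partners, 17 passed the filter over all cells. From iHEC to day 14, 2 were higher: Myb, a factor of blood progenitors, by 4.08 and Batf, which pairs with Irf4 and Irf8, by 3.35. This was close to the 12.1% higher of all genes. Myb had a mean of 0.22 in iHECs and passed the filter through the iHPCs, so this count is a description. Another 6 were lower, beside 10.9% of all genes, the largest being Jun with -6.08 and Egr1 with -5.95, both factors of the immediate early response. None passed from day 14 to day 17. From day 17 to day 21 Id2, an inhibitor of E proteins, was higher by 5.13, Gata2 by 4.15, and Fos lower with -4.62, beside 1.73% higher and 1.36% lower of all genes. Gata2-high cells were higher in Gata1 by 5.34 and Id2 by 2.73 and lower in Gata3, a T cell factor, with -3.62, beside 4.14% higher and 2.58% lower of all genes. Gata2 itself set that split. Gata1 had a Gata2-low mean of 0.3 and passed the filter through the Gata2-high cells, so its call is a description. The medians in the 4 comparisons were -1.01, 0.20, 0.33 and 0.38 over the partners that passed and -1.03, 0.03, 0.37 and 0.26 over the 20.

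For the 4 members found in at least 20 iHPCs, the genes with the most similar pattern were sought by Pearson r over the 95 iHPCs after centring within each day. Sfpi1 was closest to Arpc1b (r = 0.81), Coro1a (r = 0.76) and Laptm5 (r = 0.75), all abundant in blood cells. These values were lower without the 4 iHPCs that lacked Ptprc: over the other 91 they were 0.67, 0.59 and 0.57, and Erp29 stood first (r = 0.83). Here and below, genes that stood first without those cells were named after their values were seen. Irf8 was closest to BC005764 (r = 0.54), Cd86 (r = 0.51), a costimulatory protein of antigen-presenting cells, and Unc93b1 (r = 0.50), a chaperone of endosomal Toll-like receptors. Over the 91 iHPCs these were 0.47, 0.46 and 0.41, and Mcm3ap stood first (r = 0.50). Cebpd was closest to Anxa3 (r = 0.55), Tnfaip2 (r = 0.51) and Cd302 (r = 0.49), which were 0.43, 0.39 and 0.47 over the 91, where Mtus1 stood first (r = 0.51). Cebpb was closest to Ino80b (r = 0.45), Ctdsp1 (r = 0.43) and Leprot (r = 0.42), and over the 91 these were 0.47, 0.43 and 0.41, with Ino80b again first. The cells share their library chemistry and differ in genes detected, with which the members had r of 0.20 (Sfpi1), 0.18 (Cebpb), 0.01 (Cebpd) and 0.28 (Irf8). Among the 4 members themselves r over the 95 iHPCs ran from 0.22, for Sfpi1 with Cebpb and Cebpd with Irf8, to 0.37, for Sfpi1 with Irf8.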

How the data were processed

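Single sorted cells were amplified by the authors with the Discover-sc WTA Kit V2, checked by qPCR of B2m and Gapdh and turned into libraries (TruePrep DNA Library Prep Kit V2). Reads were aligned to mm10 with HISAT2 2.1.0, and StringTie 1.3.4 gave the deposited TPM values. The submitters' processing notes also name SAMtools 0.1.19 and bcl2fastq. The annotation and any use of molecular tags are not given in the sources used here, and sources differ on the sequencer. TPM keep no read counts and sum to 988686 to 999108 per cell over the table's rows, so depth is unknown and a rise of some genes lowers others. The iHEC day stands in no label used here.

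Values were analysed as log2(TPM + 1) with Python 3.11.15, NumPy 2.4.6, pandas 2.3.3 and SciPy 1.17.1. 0 columns were left unused and 0 pairs of cells held identical values. Above 1 TPM counted as detected, with exact (Clopper-Pearson) 95% intervals, and a count of 0 was read as allowing 3 cells. No count-based test was possible on TPM, and with 1 sample per group no p-value was computed. Positions came from the GENCODE annotation of GRCm38 and promoters from RefSeq, with entries for Cebpa, Cebpb, Irf8, Irf4 and Klf4. The calculation was tested on simulated data. The members and gene lists were chosen with earlier results of these data known. The text names all 8 members, up to 4 genes of each pathway list per comparison with the largest difference past the size rule, the 3 most similar genes of each member found in at least 20 iHPCs and, beside the day-21 split, Gata2 and Cpa3. Other genes set beside the members (such as Csf1r, Mpo, Il7r, Tcf7 and Cd3g) were chosen after their values were seen. Alternatives were pseudocounts of 0.1 and 10, no filter, no subtraction of the median, size factors, cells with at least 4000 genes, detection above 0 or 10 TPM, other Gata2 thresholds and Spearman correlation. Leaving out each cell, the 5 cells against the CD45 gate, or day-17 cells 1 and 18 was added after the data were seen.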

Additional observations from a re-analysis of the deposited data

How the results depend on the processing

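The number of members higher in each comparison did not move under any alternative run: 3 from iHEC to day 14 and 0 in the others. The number lower was less firm, since Cebpd, Cebpb and Irf8 lay near the size rule. From iHEC to day 14 it was 1, and became 2 with a pseudocount of 0.1 and 0 with a pseudocount of 10, without the filter or without subtracting the median difference. From day 14 to day 17 it was 1, and became 2 with a pseudocount of 0.1, 0 with a pseudocount of 10, 2 without the cells against the CD45 gate and 2 without day-17 cells 1 and 18. From day 17 to day 21 it was 1, and became 2 with a pseudocount of 0.1, without the filter or without subtracting the median difference, and 0 with a pseudocount of 10 or without day-17 cells 1 and 18. Between Gata2 classes it was 0, and became 1 with a pseudocount of 0.1. Leaving out each cell in turn gave 1 to 2 lower members from day 14 to day 17 (2 without day-17 cell 1 or cell 18) and 1 to 2 from day 17 to day 21, with 2 without any of day-17 cells 2, 3, 5, 10, 13, 15 and 16 or day-21 cells 25, 36, 42, 49 and 51. The size factors and the cells with at least 4000 genes moved none of the counts. With detection above 10 TPM, the share of day-17 cells with both Sfpi1 and Irf8 was 55.6% in place of 94.4%. Of 48 shares of single members, 8 moved with detection above 10 TPM, 4 above 0 TPM and 1 with at least 4000 genes per cell. Above 10 TPM, Cebpa was in 5 day-14 cells in place of 11, and Irf4 in 0 day-17 cells in place of 3. Klf4 was in 0 day-17 cells in place of 5 and in 4 day-21 cells in place of 10. By Spearman correlation the most similar genes to Sfpi1, Cebpd and Irf8 were Arpc1b, Cd302 and BC005764, and Echs1 stood first for Cebpb. No difference past the size rule turned its direction. No paired analysis was possible because the result comes from no test. Depth is unknown, so a factor listed at 0 may be below detection, most of all in iHECs.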

Other observations

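Cd3g was seen in many day-21 cells that held PU.1, and was chosen after its values were seen. Cd3g, a chain of the CD3 complex, was above 1 TPM in 29 of the 55 day-21 cells with Sfpi1, that is in 25 of 33 such Gata2-low cells and 4 of 22 Gata2-high cells, while it was in 0 of 20 day-14 cells and 1 of 18 day-17 cells with Sfpi1. The highest Cd3g value was 2773 TPM. The other CD3 chains were seen less widely among the 56 day-21 cells, Cd3e in 8 and Cd3d in 8, and Bcl11b, a factor of T cell commitment, in 1. Of the 13 day-21 cells with Irf8, 9 held Cd3g, and of the 10 with Klf4, 8 did. All of these were Gata2-low cells, of which 26 of 34 held Cd3g. At day 14, Gata2 was above 1 TPM in 5 of 11 cells with Cebpa and in 1 of 10 without it, at no more than 12 TPM. At day 17 it was in 3 of 4 cells with Cebpa and 0 of 14 without it. These day-17 values were low, with 6.78 TPM in cell 1, 4.6 TPM in cell 18 and 1.0 TPM, at the cutoff, in cell 3. These values are descriptions of cells of 1 sample per group.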
